A study of Mus musculus with 18 samples.

Results

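The genes described here encode proteins of the tumour necrosis factor (TNF) receptor signalling complex and of the death complexes that form from it: Ripk1, Mlkl, Casp8, Fadd, Cflar, Tradd, Traf2, Birc2, Birc3 and Cyld. They were taken by gene symbol from a count table and a TPM table of 55487 genes each. All 10 symbols were found once in both tables, and all 10 passed the filter on low counts that left 15996 genes for testing.

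When TNF binds its receptor, the adaptor Tradd gathers the kinase Ripk1, the adaptor Traf2 and the ubiquitin ligases Birc2 and Birc3 (cIAP1 and cIAP2), and the ubiquitin chains they build on Ripk1 carry the signal towards NF-kB and survival. Cyld, a deubiquitinase, removes such chains. Ripk1 can then join Fadd and caspase-8 in a cytosolic complex, in which the caspase-like protein Cflar (c-FLIP) holds full caspase-8 activation in check; where caspase-8 is blocked, Ripk1 can instead pass to Ripk3, which phosphorylates Mlkl, the protein that breaches the plasma membrane in necroptosis. Microglia, the resident macrophages of the brain, are known both to release TNF and to respond to it.

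The libraries came from BV2, a line of mouse microglia that was made immortal with retroviral oncogenes, and fell into 6 groups of 3. The groups were cells labelled BAK1-KD (KD below) and cells labelled NC, each sampled before oxyhemoglobin (the control, 0 h) and 12 h or 24 h into it, at a labelled 10 mM. The labels do not spell out NC, do not name the knockdown reagent and do not state that replicates were separate cultures, so p-values measure the spread between these libraries. No untreated library at 12 h or 24 h was analysed here, so oxyhemoglobin and time in culture cannot be told apart.

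Library totals ran from 4361313 to 6008810 counts. Bak1, the gene named in the KD label, had 2, 4 and 7 counts in KD controls, 4, 1 and 5 at 12 h and 12, 2 and 2 at 24 h. In NC libraries it had 3, 3 and 0 counts in controls, 2, 7 and 4 at 12 h and 1, 0 and 5 at 24 h. Summed, these were 39 counts in KD and 25 in NC libraries, a rate ratio of 1.62 (95% interval 0.953 to 2.79, exact, two-sided p = 0.0615, counting error only). The ratio was 2.19 in controls (95% interval 0.778 to 7.03) and 0.821 at 12 h (0.322 to 2.03). At 24 h it was 2.74 (1.02 to 8.56), with 12 of the 16 KD counts in 1 library. Of the exon bases of Bak1 25.5% overlap Ggnbp1 on the other strand, and 17.1% of its 50-base stretches recur elsewhere, chiefly in Ggnbp1. Bak1 counts thus did not show the labelled knockdown, and KD and NC stand here for the labels alone. Of 12 microglial and macrophage markers 11 had counts, with Sall1 at 0, P2ry12 at 8 and Aif1 at 43 counts in all 18 libraries together. Of the neuronal markers 3 of 4 were at 0, and of the erythroid markers, which include the globins, 5 of 6 were at 0. The summed CPM (counts scaled to the library total after TMM adjustment) of the microglial markers ran from 627 to 941 in KD and from 529 to 707 in NC libraries. Of 9 tested, 1 rose and 3 fell at 12 h in KD cells, where 16% of all genes tested were called at an adjusted p under 0.05. In NC cells 2 rose and 1 fell, where 12.2% were called. Averaged over the times, 2 of the 9 were higher in KD than in NC cells and 0 lower, where 9.99% of all genes were called. The part of these markers in the results below was not tested.

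In deposited TPM, a level per length, Cflar, Fadd and Tradd were the most abundant of the 10 genes. Cflar averaged 28.7 TPM over the 18 libraries (range 14.8 to 47.6), Fadd 27.7 (22.3 to 35.1) and Tradd 21.8 (15.6 to 27.3). The ranges of these 3 adaptors and regulators overlapped. Birc3 followed at 9.61 TPM (5.22 to 14.3), below every Tradd value, and then Ripk1 at 4.44 TPM (3.19 to 5.40) and Traf2 at 2.59 TPM (1.60 to 3.84), each overlapping the gene above it. Casp8 (1.19 TPM, 0.621 to 2.17), Mlkl (0.939 TPM, 0.177 to 1.77), Birc2 (0.771 TPM, 0.323 to 1.17) and Cyld (0.452 TPM, 0.233 to 0.765) could not be ranked beyond their spread. The order depends on the length used. The deposited length of Cyld, 54963 bases, is 100.1% of its locus span in GENCODE M21 and 4.37 times its exon bases counted once. The deposited length of Ripk3, 8525 bases, exceeds its locus span of 3871 bases, so these lengths do not show which bases were counted. Whether reads over introns are among the counts was not tested. Per base of its longest coding transcript Cyld ranked 8, above Mlkl and Birc2, and Fadd 4, behind Cflar, Tradd and Birc3. Per exon base counted once, Cyld ranked 9, above Birc2 alone, and Fadd 3.

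Counts set how much could be seen. Cflar had 1140 to 2682 counts per library, Fadd 229 to 380, Birc3 129 to 311, Tradd 156 to 291 and Ripk1 125 to 230. Cyld had 34 to 124 counts and Traf2 44 to 88. Casp8 had 13 to 51, Birc2 8 to 30 and Mlkl 3 to 22, which puts these 3 genes near the counting limit. The spread that counting alone gives was 27.4% of the mean for Mlkl, 23.0% for Birc2, 19.5% for Casp8 and 2.32% for Cflar. The 95% interval of the KD 12 h change accordingly spanned 1.80 log2 units for Mlkl and 0.53 for Cflar, so a change in Mlkl had to be far larger than one in Cflar to be called.

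**Figure D1:**
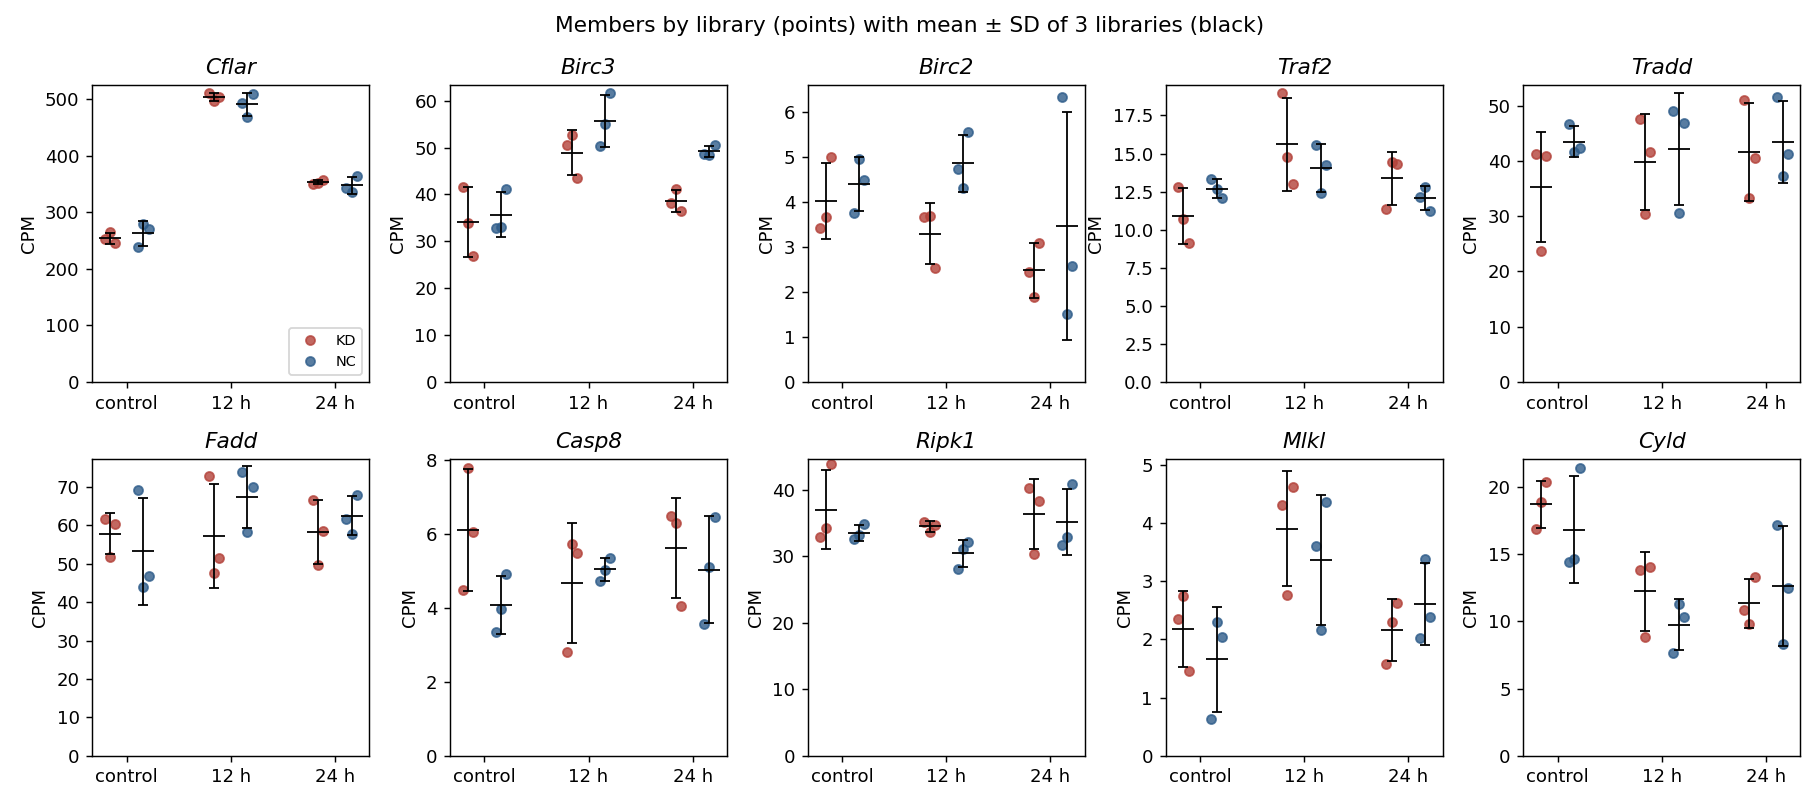
CPM (axes from 0) of the 10 genes in each of the 18 libraries, by time, with KD left of NC; points are libraries and black lines the group mean ± SD (n = 3). Cflar stood at 496 to 510 CPM in the KD 12 h libraries, against 245 to 265 in KD controls.

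Oxyhemoglobin was compared with the control in each line by edgeR's quasi-likelihood test over all 15996 genes, with Benjamini-Hochberg adjustment and a threshold of 0.05. At 12 h, 2 of the 10 genes passed in KD cells, where 16% of all genes tested were called. The same 2, Cflar and Birc3, passed in NC cells, where 12.2% were called, and both were higher with oxyhemoglobin. At 24 h, 1 gene passed in KD cells (Cflar, higher), beside 9.59% of all genes, and 0 passed in NC cells, beside 7.57%. Between 24 h and 12 h, Cflar alone fell in KD cells (4.28% of all genes called) and in NC cells (2.76%). In NC cells at 24 h, 2 of the 10 genes had an unadjusted p under 0.05, and DESeq2 called 1, Cflar. The share of members called was therefore near that of all genes at 12 h. The median log2 change of the 10 genes was 0.08 in KD and 0.23 in NC cells at 12 h, beside 0.00 and -0.01 for all genes tested.

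Groups of 3 libraries that did not overlap in CPM were counted as well. At 12 h, 5 of the 10 genes lay apart from the controls in KD cells (Cflar, Birc3, Mlkl and Traf2 above, Cyld below), where 30.8% of all genes did. In NC cells 4 did (Cflar and Birc3 above, Cyld and Ripk1 below), where 26.5% of all genes did. At 24 h these counts were 3 in KD cells (27.4% of all genes) and 2 in NC cells (21.4%).

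Cflar, the caspase-8 regulator, rose at 12 h in both lines and stood between the control and 12 h levels at 24 h. In KD libraries it had 252, 265 and 245 CPM in controls, 510, 496 and 503 at 12 h and 349, 352 and 357 at 24 h. In NC libraries it had 238, 280 and 271 CPM in controls, 493, 468 and 509 at 12 h and 342, 335 and 364 at 24 h. In neither line did the 3 times overlap: every 12 h library was highest and every control library lowest. In bulk RNA more Cflar per cell and more cells with Cflar cannot be told apart. The 12 h increase was 1.98-fold in KD cells (95% interval 1.65 to 2.38, log2 0.99 ± 0.13 SE, adjusted p = 5.9e-06). In NC cells it was 1.86-fold (1.55 to 2.24, log2 0.90 ± 0.13, adjusted p = 2.9e-05). Both calls held without any 1 library and under every other setting tried, with adjusted p up to 0.00205 in KD and 0.00958 in NC cells.

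At 24 h Cflar was 1.39-fold higher than in controls in KD cells (adjusted p = 0.0170) and 1.32-fold in NC cells (adjusted p = 0.0556). Relative to 12 h it fell by 0.51 on the log2 scale in KD cells (adjusted p = 0.0184) and by 0.50 in NC cells (adjusted p = 0.0334). These calls were less firm in refits with 1 library left out, which did not block replicate numbers. The KD 24 h call was lost without KD 24 h library 2 or 3 or KD control library 1 or 3 (adjusted p up to 0.0884). The KD fall was lost without any 1 of the 6 KD libraries at 12 h and 24 h (up to 0.0706). The NC fall was lost without NC 12 h library 1 or 3 or NC 24 h library 1 or 2 (up to 0.126). With replicate numbers blocked, the NC 24 h increase passed (adjusted p = 0.000346), and the KD 24 h increase and both falls kept their calls. Of the 11 other settings, the KD 24 h call held in 7, the KD fall in 7 and the NC fall in 6.

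Cflar lies on chromosome 1 (GRCm38, 58711508 to 58758884, plus strand), next to Casp8 (58795374 to 58847503, plus strand), with 36490 bases between them. Of its 50-base stretches 7.36% occur elsewhere in the annotated transcripts, chiefly in Gm9845, so a part of its reads could be split or lost. Its deposited length of 23787 bases is 13.4 times its longest coding transcript, and the splice forms of c-FLIP cannot be told apart in counts per gene. The promoters of Cflar and Birc3 are shown because these genes rose in both lines. Each is the 250 bases before the RefSeq start (GRCm38.p6), 5′ to 3′ on the gene's strand, chr1:58711241-58711490 on the plus strand for Cflar and chr9:7873171-7873420 on the minus strand for Birc3.
Cflar: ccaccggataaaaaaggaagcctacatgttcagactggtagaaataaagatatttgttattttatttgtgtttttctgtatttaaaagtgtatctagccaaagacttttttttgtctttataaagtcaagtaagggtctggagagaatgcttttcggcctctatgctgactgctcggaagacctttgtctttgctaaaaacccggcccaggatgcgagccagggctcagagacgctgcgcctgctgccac
Birc3: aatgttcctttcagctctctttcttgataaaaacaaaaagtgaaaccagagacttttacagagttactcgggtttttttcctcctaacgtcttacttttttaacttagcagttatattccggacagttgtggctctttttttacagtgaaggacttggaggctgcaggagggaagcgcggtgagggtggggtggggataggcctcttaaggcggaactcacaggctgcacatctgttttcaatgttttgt
Both strands were searched for the NF-kB letters GGNNTTTCC and GGGNNNTCC, the interferon response letters GAAANNGAA and the STAT letters TTCNNNGAA, and none of the 4 was found in either window. Over the same 250 bases of 32851 mouse promoters, 4.93%, 15.2%, 7.13% and 7.02% hold them, in that order. GGNNTTTCC and GGGNNNTCC can overlap each other.

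Birc3, the ubiquitin ligase cIAP2 and a well-known NF-kB target, was higher at 12 h in both lines. In KD libraries it had 41.6, 33.8 and 26.8 CPM in controls, 50.5, 52.7 and 43.5 at 12 h and 38.2, 41.2 and 36.4 at 24 h. NC libraries had 32.8, 33.2 and 41.2 CPM in controls, 50.4, 55.0 and 61.6 at 12 h and 48.6, 48.4 and 50.6 at 24 h. All 12 h libraries stood above the controls of their line, while at 24 h only the NC libraries did. Birc3 rose 1.43-fold in KD cells at 12 h (95% interval 1.12 to 1.84, adjusted p = 0.0421) and 1.56-fold in NC cells (1.22 to 2.00, adjusted p = 0.0146). At 24 h the changes were 1.13-fold in KD (adjusted p = 0.627) and 1.38-fold in NC cells (adjusted p = 0.115), of which the NC value passed with the replicate block (adjusted p = 0.0160).

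The KD 12 h call of Birc3 lay at the threshold. It was lost on leaving out KD 12 h library 1 or 2, KD control 2 or 3, any KD 24 h library, NC 12 h 3, NC 24 h 1 or 2, or NC control 2 (adjusted p up to 0.236). The NC call was lost without NC 12 h library 3, NC control 1 or NC control 2 (adjusted p = 0.0615 to 0.0922). Under the other 11 settings the KD call held in 5 and the NC call in 6, with log2 changes of 0.50 to 0.66 and 0.61 to 0.67. Averaged over both lines, a comparison added after the values were seen, Birc3 rose by 0.58 on the log2 scale at 12 h (adjusted p = 0.000895), and that call held in all 18 refits with a library left out and under all 11 other settings. At 24 h the averaged change of 0.32 did not pass (adjusted p = 0.0745), apart from the fit with the replicate block (adjusted p = 0.0121) and 1 refit, without KD control library 1 (adjusted p = 0.0327). Birc3 lies on chromosome 9 (7848699 to 7873186, minus strand), 11635 bases from Birc2, and 7.56% of its 50-base stretches recur elsewhere, chiefly in Gm7019.

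Birc2, the ubiquitin ligase cIAP1 (chromosome 9, 7818227 to 7837064, minus strand), did not pass at either time. It had 3.42, 3.66 and 4.99 CPM in KD controls, 3.67, 3.70 and 2.52 at 12 h and 2.45, 1.88 and 3.10 at 24 h. NC libraries had 3.76, 4.95 and 4.49 CPM in controls, 4.73, 4.31 and 5.55 at 12 h and 6.33, 1.51 and 2.58 at 24 h. Within each line the groups overlapped, except that every KD 24 h library stood below the KD controls (log2 -0.70 ± 0.42, adjusted p = 0.358). The TPM ratio of Birc3 to Birc2 averaged 9.45 in KD controls, 16.0 at 12 h and 17.3 at 24 h, and 8.67, 12.2 and 20.9 in NC libraries. The SD of the ratio in the NC 24 h group was 12.9, from Birc2 counts of 25, 8 and 14.

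**Figure D2:**
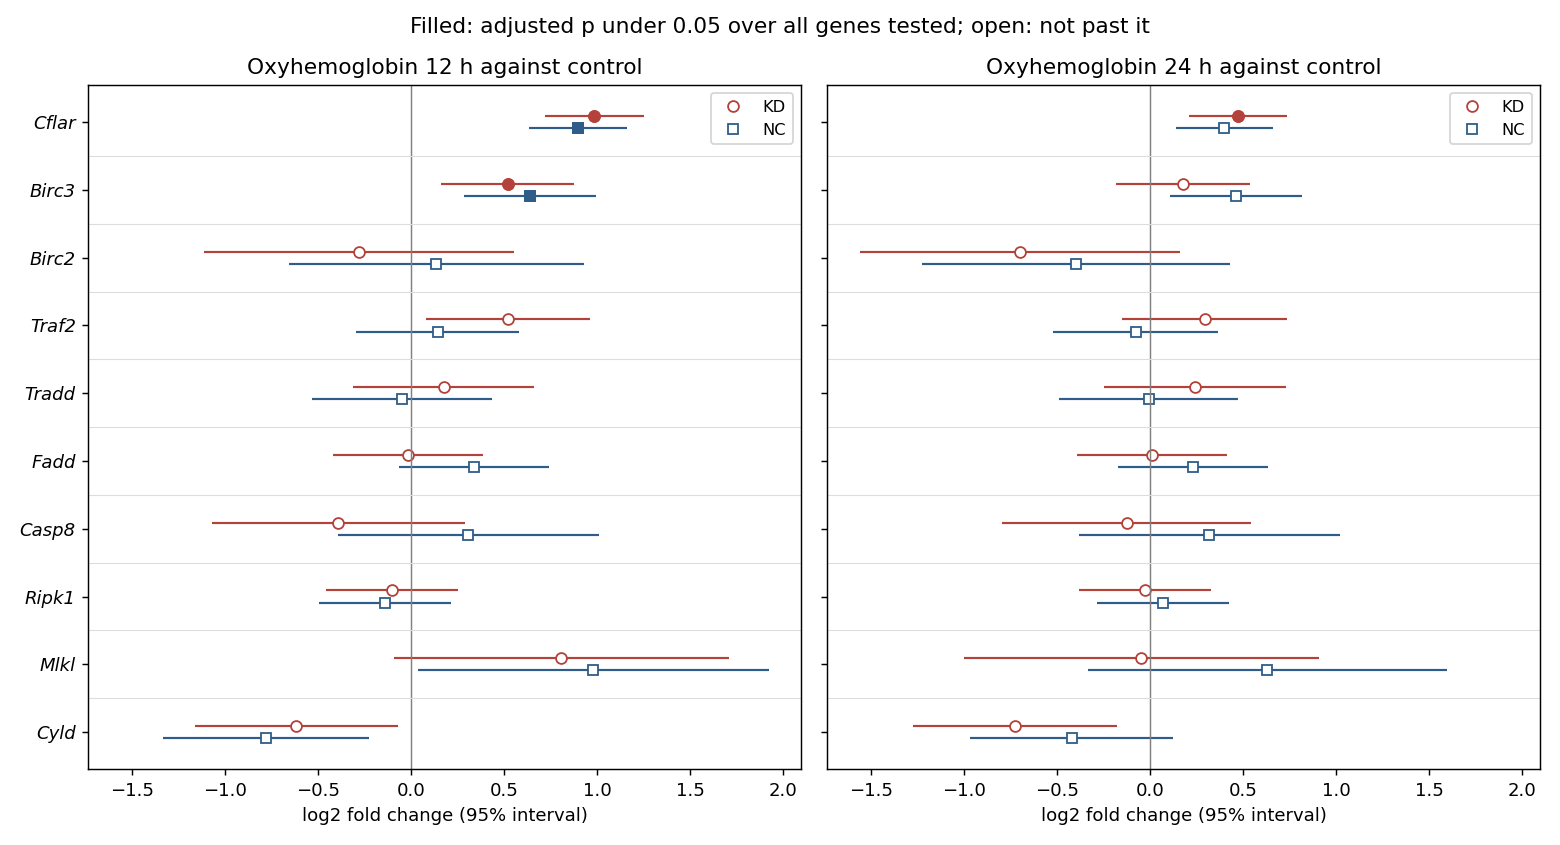
Log2 change of each gene with oxyhemoglobin at 12 h and 24 h against the control of the same line, with 95% intervals from edgeR; KD stands above NC, and filled points passed the threshold. Cflar at 12 h lies at 0.99 (KD) and 0.90 (NC), and the intervals of Mlkl, Birc2 and Casp8 are the widest.

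Cyld, the deubiquitinase, was below the controls in most libraries with oxyhemoglobin. It had 16.9, 18.9 and 20.4 CPM in KD controls, 13.8, 8.87 and 14.1 at 12 h and 10.9, 9.83 and 13.3 at 24 h. Its NC values were 14.4, 14.7 and 21.4 CPM in controls, 7.65, 11.3 and 10.3 at 12 h and 17.2, 8.28 and 12.5 at 24 h. Every 12 h library stood below the controls of its line, as did the KD libraries at 24 h, while the NC libraries at 24 h overlapped them. In the single lines Cyld did not pass (12 h: log2 -0.61 ± 0.26, adjusted p = 0.124 in KD, and -0.78 ± 0.27, adjusted p = 0.0612 in NC). With the replicate block it passed at 12 h in KD (adjusted p = 0.0228) and NC cells (adjusted p = 0.00939) and at 24 h in KD cells (adjusted p = 0.0110). At 12 h in NC cells it also passed with the filter at 5 CPM in 3 libraries (adjusted p = 0.0433) and without KD 12 h library 2 or NC 24 h library 1 or 2 (adjusted p = 0.0380 to 0.0448). At 24 h in KD cells it also passed with the compared groups only (adjusted p = 0.0489).

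Averaged over the lines, the comparison added after the values were seen, 4 of the 10 genes passed at 12 h, where 25.2% of all genes did, and 2 at 24 h, where 17.7% did. Cyld fell to 0.617 of the control level at 12 h (95% interval 0.471 to 0.808, adjusted p = 0.00770) and to 0.672 at 24 h (0.514 to 0.879, adjusted p = 0.0356). The 12 h call held without any 1 library, and the 24 h call was lost without KD 24 h library 1 or 2, KD control 3, NC 24 h 2 or 3, or NC control 3 (adjusted p up to 0.0950). Of the 9 other settings that tested Cyld, 8 kept both calls, and limma on log2(TPM + 1) without a filter lost them (adjusted p = 0.118 at 12 h and 0.0911 at 24 h). Cyld lies on chromosome 8 (88697028 to 88751945, plus strand). Counts per gene do not tell spliced and unspliced RNA apart in this fall. Its promoter, chosen after the values were seen, is shown because it holds matches to 2 of the 4 motifs (chr8:88696778-88697027, plus strand, capitals marking the matches).
Cyld: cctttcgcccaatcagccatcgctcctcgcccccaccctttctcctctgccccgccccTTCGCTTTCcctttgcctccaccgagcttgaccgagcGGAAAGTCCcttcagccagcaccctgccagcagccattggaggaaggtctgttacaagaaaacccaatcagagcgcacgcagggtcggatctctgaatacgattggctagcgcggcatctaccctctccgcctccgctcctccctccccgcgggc
The first capitals are the interferon response letters GAAANNGAA on the minus strand, 192 bases before the start. The second are the NF-kB letters GGNNTTTCC on the minus strand, 155 bases before it. Of the promoters of the other genes, those of Fadd and Birc2 hold 1 match each to GGGNNNTCC and one of Ripk1 holds 2 to TTCNNNGAA. No promoter sequence is given here for Tradd.

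Mlkl, the executioner of necroptosis (chromosome 8, 111311797 to 111338177, minus strand), had few reads and its highest level at 12 h. Its counts were 11, 18 and 7 in KD controls, 20, 15 and 22 at 12 h and 9, 11 and 11 at 24 h. In NC libraries they were 3, 14 and 10 in controls, 16, 12 and 22 at 12 h and 8, 18 and 13 at 24 h. In CPM the KD 12 h libraries (2.77 to 4.62) stood just above the KD controls (1.46 to 2.74), while in NC cells the groups overlapped. Mlkl did not pass in the single lines (1.75-fold, 95% interval 0.938 to 3.27, adjusted p = 0.242 in KD, and 1.97-fold, 1.03 to 3.79, adjusted p = 0.185 in NC). Averaged over the lines it rose 1.86-fold at 12 h (1.18 to 2.92, adjusted p = 0.0393). That call held in 10 of 18 refits with a library left out. It was lost without any 1 of KD 12 h 1 or 3, KD control 1 or 3, NC 12 h 1 or 3, or NC control 1 or 3 (adjusted p up to 0.118). Of the 8 other settings that tested Mlkl, 4 lost the call: no filter, DESeq2, limma without a filter and the compared groups only (adjusted p = 0.0567 to 0.0711).

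Ripk1, the kinase upstream of Ripk3 and Mlkl (chromosome 13, 34002363 to 34037147, plus strand), did not pass in any comparison. It had 32.9, 34.3 and 43.9 CPM in KD controls, 35.2, 33.6 and 34.7 at 12 h and 40.3, 30.3 and 38.4 at 24 h. Its NC values were 32.6, 33.2 and 34.9 CPM in controls, 28.1, 31.1 and 32.1 at 12 h and 31.7, 33.0 and 40.9 at 24 h. All NC 12 h libraries stood below the NC controls, by a small margin. The 12 h change was -0.10 on the log2 scale in KD (95% interval -0.45 to 0.25) and -0.14 in NC cells (-0.49 to 0.22). Of the exon bases of Ripk1 9.01% overlap Serpinb6a or Gm17084. Ripk3, which phosphorylates Mlkl, had 5 counts in all, in 3 of the 18 libraries, and Zbp1, a nucleic acid sensor that can engage Ripk3, had 4, all in NC libraries with oxyhemoglobin. A count of 0 allows up to 3 counts, or 0.499 to 0.688 CPM by the unadjusted library totals, so Ripk3 was at or near the floor in every group.

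Casp8 and Fadd, which with Cflar form the caspase-8 complex, did not pass in any comparison. Casp8 had 4.48, 7.78 and 6.03 CPM in KD controls, 2.81, 5.73 and 5.46 at 12 h and 6.48, 6.28 and 4.05 at 24 h. NC libraries held 3.34, 3.96 and 4.90 CPM in controls, 4.73, 5.03 and 5.35 at 12 h and 3.55, 5.08 and 6.44 at 24 h. All groups overlapped. At 12 h the log2 change was -0.39 (95% interval -1.07 to 0.29) in KD and 0.31 (-0.39 to 1.01) in NC cells. A rise of the size seen in Cflar thus lay outside the KD interval and inside the NC one. A fall of that size lay inside the KD interval. Fadd, the adaptor (chromosome 7, 144577318 to 144582463, minus strand), had 51.7 to 61.7 CPM in KD controls, 47.7 to 72.8 at 12 h and 49.8 to 66.6 at 24 h. NC libraries had 43.9 to 69.3 CPM in controls, 58.4 to 74.1 at 12 h and 57.8 to 67.9 at 24 h. In CPM the Fadd groups overlapped throughout. In TPM the NC 12 h libraries (30.7 to 32.4) lay above the NC controls (22.3 to 26.4) and the NC 24 h libraries (22.7 to 28.1). With the replicate block Fadd passed in NC cells at 12 h (log2 0.35, adjusted p = 0.0290).

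The ratio of Cflar to Casp8 in TPM, which sets the regulator beside the protease it regulates, averaged 14.6 in KD controls, 40.3 at 12 h and 22.2 at 24 h. In NC libraries it averaged 22.1 in controls, 32.7 at 12 h and 24.5 at 24 h. The 12 h libraries (29.0 to 61.0 in KD, 31.2 to 35.0 in NC) all stood above the controls of their line (11.4 to 18.9 in KD, 18.5 to 23.9 in NC). The ratio of Mlkl to Ripk1 averaged 0.167, 0.306 and 0.165 over the 3 times in KD and 0.133, 0.301 and 0.203 in NC libraries. These ratios are descriptions of genes picked with earlier results known, and their levels at every time carry the deposited lengths. The change of a ratio between times does not.

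**Figure D3:**
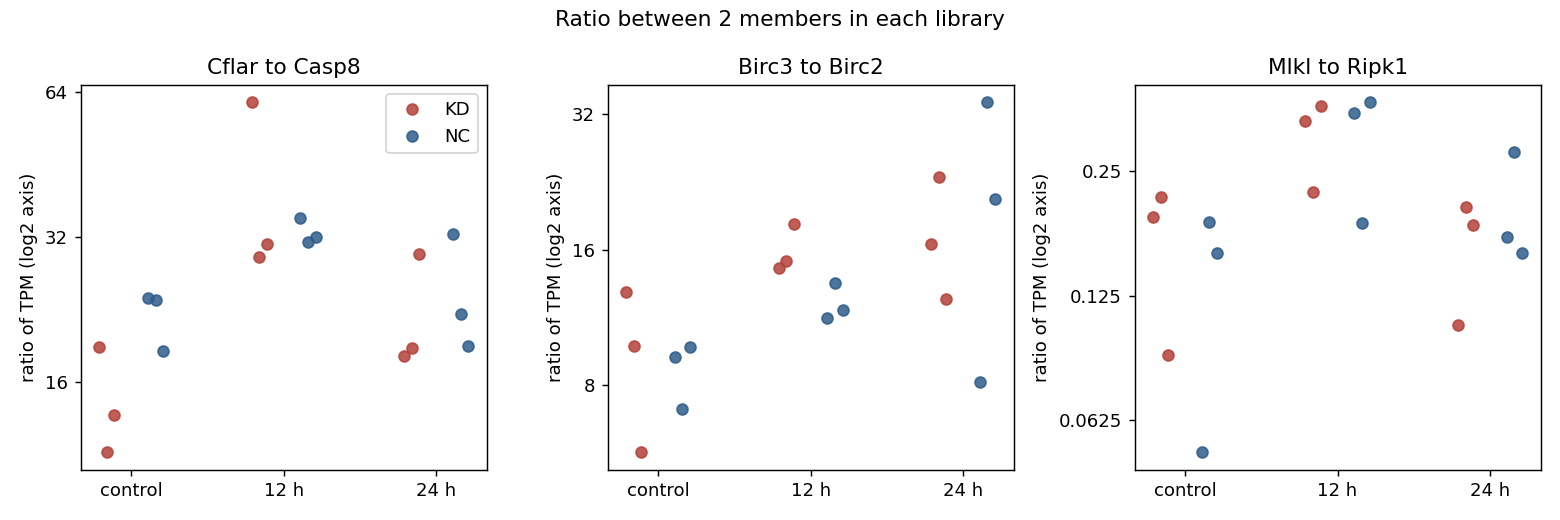
TPM ratios of Cflar to Casp8, Birc3 to Birc2 and Mlkl to Ripk1 in each library (log2 axis), by time, with KD left of NC; each point is a library. The Cflar to Casp8 ratio has its highest means at 12 h, 40.3 in KD and 32.7 in NC cells.

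Of the receptor adaptors, Traf2 (chromosome 2, 25517982 to 25546940, minus strand) had 12.8, 10.7 and 9.15 CPM in KD controls, 19.0, 14.8 and 13.0 at 12 h and 11.4, 14.4 and 14.3 at 24 h. In NC libraries it had 13.4, 12.7 and 12.0 CPM in controls, 15.5, 12.4 and 14.3 at 12 h and 12.2, 12.8 and 11.2 at 24 h. Only the KD 12 h libraries stood clear of their controls. The KD change was log2 0.52 ± 0.21 (adjusted p = 0.106, and 0.0488 with the replicate block), and the NC change 0.14 ± 0.21. Tradd (chromosome 8, 105258286 to 105264609, minus strand) had 23.8 to 41.2 CPM in KD controls, 30.3 to 47.5 at 12 h and 33.3 to 51.0 at 24 h, and 41.6 to 46.7, 30.5 to 49.1 and 37.3 to 51.7 CPM in the NC groups. Its log2 changes with oxyhemoglobin lay between -0.05 and 0.24, with adjusted p of 0.627 or more. In CPM library 2 had the lowest Tradd value in all 6 groups, but in TPM it did not in the KD 24 h, NC control and NC 24 h groups.

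With the replicate block, which the correlation of same-numbered libraries in the time comparisons called for, 4 of the 10 genes passed at 12 h in KD cells (Cflar, Birc3, Cyld and Traf2), where 28.8% of all genes did. In NC cells 4 passed as well (Cflar, Birc3, Cyld and Fadd), where 24.7% of all genes did. At 24 h 2 passed in KD cells (Cflar and Cyld), beside 21.5% of all genes, and 2 in NC cells (Cflar and Birc3), beside 18.9%. The share of counts taken by the most abundant gene was 12.9% to 15.4% at 12 h against 13.8% to 20.95% in controls in KD libraries, and 13.1% to 17.2% against 17.4% to 21.5% in NC libraries. With that gene left out, the calls of Cflar and Birc3 at 12 h held in both lines.

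None of the 10 genes passed the test between KD and NC cells. At the control, 12 h and 24 h, 0 of 10 passed, where 2.06%, 1.6% and 1.39% of all genes were called by edgeR. Averaged over the times 0 of 10 passed, where 9.99% were called. Of the 10 genes 0 had an unadjusted p under 0.05 in any of these comparisons, and DESeq2 and the replicate block called 0 as well. The log2 differences averaged over the times ran from -0.38 for Birc2 (95% interval -0.86 to 0.11) to 0.21 for Casp8 (-0.18 to 0.61). For Cflar the difference was 0.00 (-0.15 to 0.15), a KD level of 0.903 to 1.11 times that in NC cells. For Mlkl it was 0.10 (-0.44 to 0.64), a KD level of 0.738 to 1.56 times that in NC cells.

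At a single time, the nearest to a line difference by adjusted p was Birc3 at 24 h. It had 38.2, 41.2 and 36.4 CPM in KD libraries, against 48.6, 48.4 and 50.6 in NC libraries. The groups did not overlap, yet the log2 difference of -0.35 ± 0.17 had an adjusted p of 0.423. Averaged over the times, the Birc3 difference was -0.20 ± 0.10 (adjusted p = 0.224), the lowest adjusted p of the 10 genes in that comparison. One other gene, Tradd, lay apart in the controls, with 41.2, 23.8 and 41.0 CPM in KD libraries, against 46.7, 41.6 and 42.3 in NC libraries (adjusted p = 0.690), while in TPM these groups overlapped. At 12 h Ripk1 lay above and Birc2 below in KD libraries. Of all genes tested, 16.7%, 16.6% and 17.2% lay apart at the 3 times. The oxyhemoglobin response was not shown to differ between the lines: the test of the difference itself called 0 of 10 at 12 h and 0 at 24 h, where 0.075% and 0.0313% of all genes were called. Here too 0 of 10 had an unadjusted p under 0.05, and DESeq2 called 0. For Cflar it was 0.09 (-0.28 to 0.46) at 12 h.

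**Figure D4:**
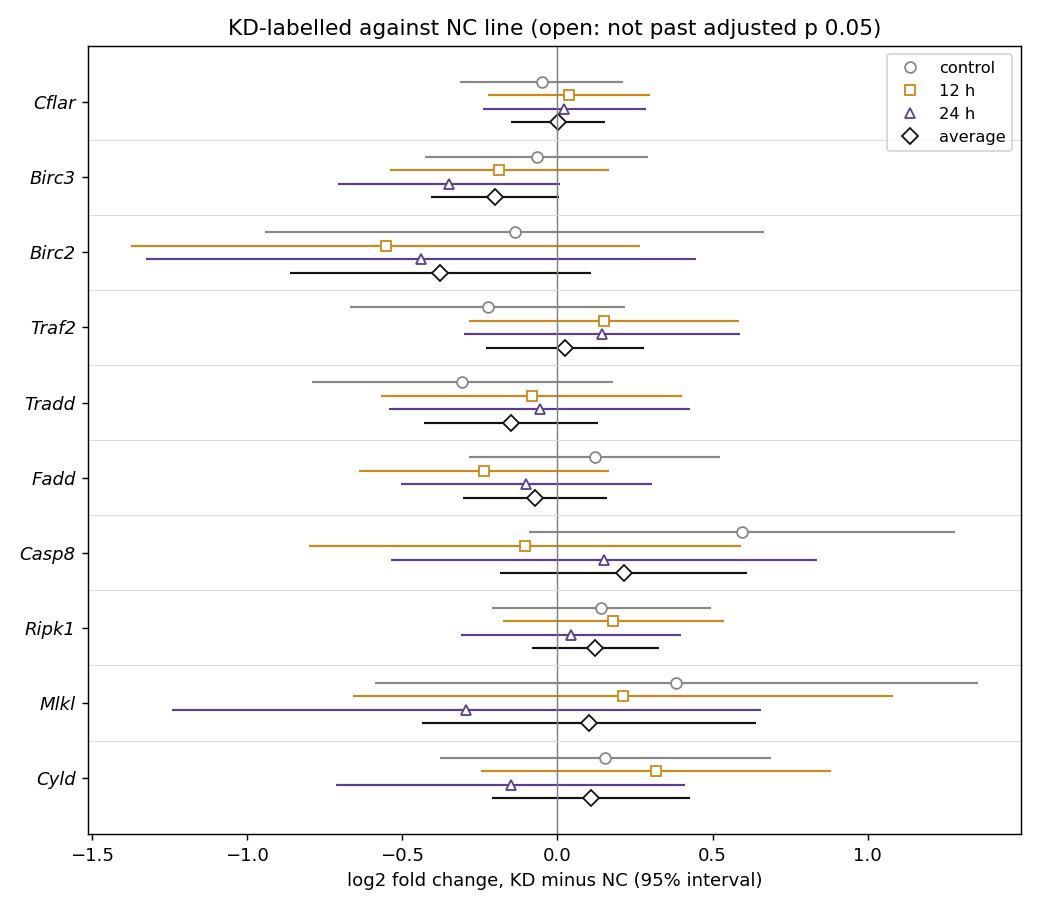
Log2 difference of KD from NC cells for each gene at the control, 12 h and 24 h and averaged over the times, with 95% intervals from edgeR. Every interval includes 0.

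The other genes of the pathway were read from 5 lists by role. Their 12 h counts stand beside 16% of all genes called in KD and 12.2% in NC cells. Of 13 ligands and receptors 8 were tested, and 3 rose at 12 h in both lines. Lta, a TNF relative, rose by log2 3.88 in KD and 3.31 in NC cells, Tnf by 2.49 and 2.62, and Tnfrsf1b, the second TNF receptor, by 1.93 and 2.38. At 24 h Tnf rose over the control by log2 2.71 in KD and 3.14 in NC cells, and Lta by 4.06 and 3.31. Of 13 adaptors and ubiquitin enzymes 4 rose at 12 h in each line. Traf1 rose by log2 2.64 in KD and 3.43 in NC cells, the ubiquitin editor Tnfaip3 (A20) by 2.23 and 1.22, and its partner Tnip1 by 1.01 and 1.15. Otulin, which cleaves linear ubiquitin chains, stood at 0.24 in KD cells (adjusted p = 0.379) and rose in NC cells (0.54, adjusted p = 0.0294).

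Of 11 kinases and their partners 1 rose at 12 h, Ikbke, by log2 0.90 in KD and 0.97 in NC cells. Of 7 necroptosis partners tested (9 listed, with Ripk3 and Zbp1 under the filter), 0 passed in KD and 2 in NC cells at 12 h. These were Hsp90aa1, a chaperone (0.32 in KD, adjusted p = 0.226, and 0.64 in NC, adjusted p = 0.0125), and Ticam1, the adaptor TRIF (0.61 in KD, adjusted p = 0.0645, and 0.81 in NC, adjusted p = 0.0176). Of 8 genes downstream of the caspases, 1 fell in KD cells, Parp1 (-0.82, adjusted p = 0.00515), which stood at -0.36 in NC cells, where 0 of 8 passed. These lists of 11 and 8 genes are too small to set their counts apart from the share of all genes called. Averaged over the lines, the comparison added after the values were seen, 6 of the 11 kinases and partners passed at 12 h (5 higher, 1 lower). Of the 8 genes downstream of the caspases 1 passed there (lower), and of all genes tested 25.2% did. The median log2 change at 12 h was 0.46 in KD and 0.48 in NC cells for the ligands and receptors, 0.28 and 0.25 for the adaptors and 0.37 and 0.31 for the kinases. It was 0.19 and 0.27 for the necroptosis partners and -0.06 and -0.27 for the genes downstream of the caspases, beside 0.00 and -0.01 for all genes tested. Between the lines, averaged over the times, 1 of the 8 ligands and receptors passed and 0 in each of the other 4 lists, where 9.99% of all genes tested were called. That gene was the ligand Tnfsf12, at 0.72 (adjusted p = 0.00611).

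**Figure D5:**
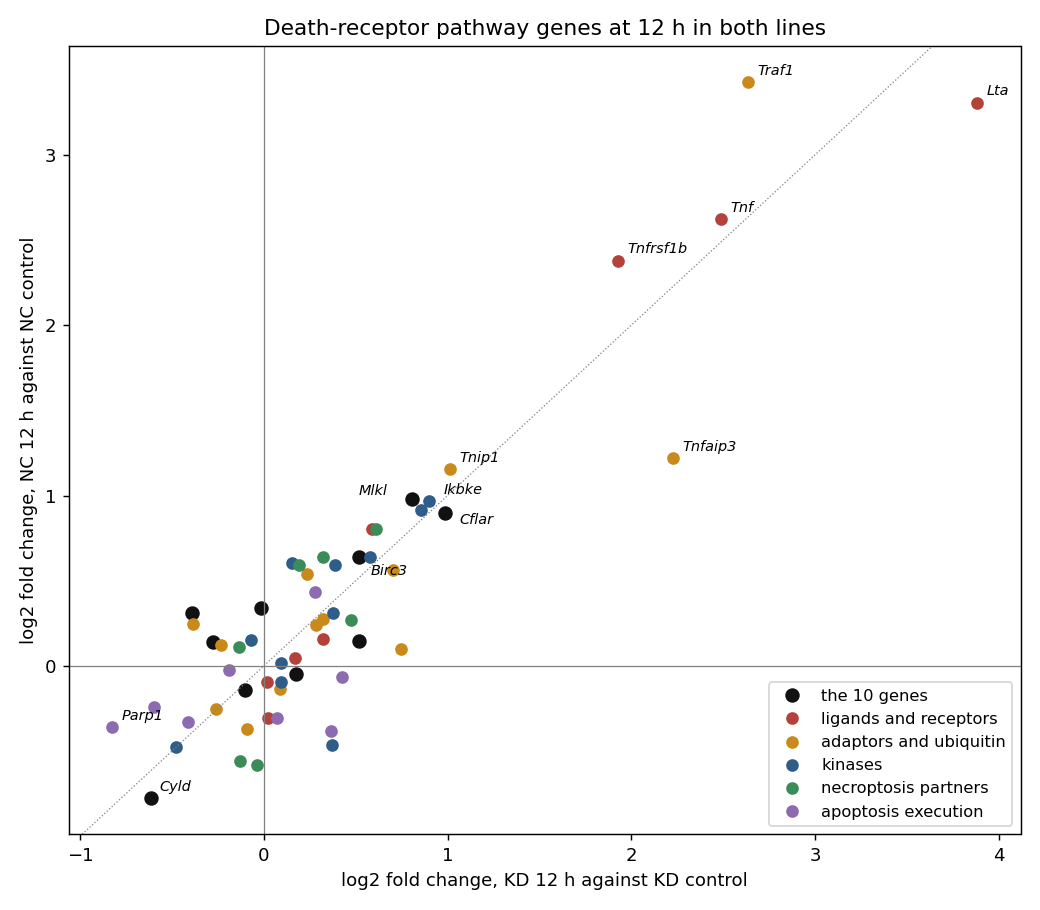
Log2 change at 12 h of oxyhemoglobin in KD cells (horizontal) against NC cells (vertical) for the 10 genes and the tested genes of the 5 pathway lists, coloured by list, with the line of equal change. Lta, Traf1, Tnf, Tnfrsf1b and Tnfaip3 lie farther from 0 than Cflar at 0.99 and 0.90.

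Across the 18 libraries the log2 CPM of Cflar and Birc3 had a Pearson r of 0.79, Cflar and Mlkl 0.71 and Cflar and Cyld -0.64, while Birc3 and Birc2, neighbours on chromosome 9, had 0.00. Cflar and Casp8, neighbours on chromosome 1, had -0.04. The genes of at least 5 CPM most like Cflar over the 18 libraries were Acbd3 (r = 0.96) and Serp1 (0.96), and those most like Birc3 were Gm32089 (0.91) and Col4a2 (0.89). For Cyld they were Camk1 (0.84) and Ankrd10 (0.83), and for Mlkl Hspa5 (0.82) and Anxa7 (0.80). All these values share the libraries, their depth and the 6 groups, and are descriptions.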

How the data were processed

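Libraries were grouped and numbered by their titles. The authors deposited whole-number read counts per gene, not normalized, and TPM, which could be rebuilt from the counts and the Length column with a largest difference of 4.89e-05. Per the submitters' processing notes the tools were bcl2fastq, HISAT2 2.2.0, featureCounts and DESeq2 with GRCm38; per the labels' protocols libraries were made by tagmentation. Strand handling and the annotation release are not given in the sources used here, so antisense reads may be counted.

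Counts were fitted with edgeR 4.0.16 (TMM factors, a filter at 10 counts, robust quasi-likelihood, 1 mean per group over all 18 libraries), which kept 15996 genes; p-values were adjusted over these by Benjamini-Hochberg. DESeq2 1.42.0 and limma 3.58.1 on log2(TPM + 1 or 0.1) were alternatives. The fit was tested on simulated data. Positions came from GENCODE M21 and promoters from RefSeq. Intervals on single counts cover counting error only. Replicates differed by more than sampling noise (chi-square over its degrees of freedom 4.50 to 17.3), so none was a copy. Same-numbered libraries deviated together in all 6 time comparisons (lowest r 0.108) and between KD and NC cells at 12 h (0.200), but not at the control (0.0703) or 24 h (0.0946), with 0.1 as the limit for r. The main fit did not use this pairing, so its p-values for the time comparisons are unpaired. The replicate block was run as an alternative.

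The members, pathway lists and tests were chosen with earlier results of these data known. Named genes were the 10 members, Bak1, Ripk3, Zbp1, up to 4 genes per pathway list with the lowest adjusted p among those past 0.05, and the 2 genes most correlated with each member that passed.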

Additional observations from a re-analysis of the deposited data

How the results depend on the processing

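Counts are of the 10 genes past the threshold. At 12 h against the control (2 in KD, 2 in NC cells), the count was 1 in both lines without a filter, with limma on log2 TPM (pseudocount 1 or 0.1, and 1 without a filter) and with the compared groups only; it was 1 in KD cells with upper-quartile factors, 3 in NC cells with 5 CPM in 3 libraries, and 4 in both lines with the replicate block. At 24 h (1 in KD, 0 in NC cells), it was 0 in KD cells without a filter and in the 3 limma fits, and 2 with the replicate block or the compared groups only. In NC cells it was 1 with upper-quartile factors, the most abundant gene left out, 5 CPM in 3 libraries and DESeq2, and 2 with the replicate block. Between 24 h and 12 h (1 in each line), it was 0 in both without a filter and in the 3 limma fits, and 0 in NC cells with the compared groups only. Averaged over the lines (4 at 12 h, 2 at 24 h), the 3 limma fits gave 2 and 0. At 12 h the averaged count was 3 without a filter, with 5 CPM in 3 libraries (where Mlkl was not tested), with DESeq2 and with the compared groups only, and at 24 h it was 3 with the replicate block, which added Birc3. The cause of these differences was not tested, apart from the smaller number of libraries in the fits on compared groups. The line differences and their interactions gave 0 under every setting, the replicate block included, and the block changed no call beyond those given here and in the report.

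With libraries left out, the counts ran from 1 to 2 (KD 12 h), 1 to 3 (NC 12 h), 0 to 1 (KD 24 h), 0 to 0 (NC 24 h), 0 to 1 (24 h against 12 h, each line), 3 to 4 and 1 to 3 (12 h and 24 h averaged over lines) and 0 to 0 (all line differences). Of 4090 values of single genes under an alternative, 3940 kept their direction and side of the threshold or, where not called, moved by less than their error, 80 lost a call, 20 gained one, 50 moved without a call and 0 called values changed sign. Most of the 4090 values belong to genes and comparisons without a call in the main fit, which had no call to lose. The 80 lost calls are therefore not to be read as a share of 4090. Depth limits Mlkl, Birc2 and Casp8 most, at 13.3, 18.8 and 26.2 counts per library.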
